A study of Rattus norvegicus with 12 samples.

Results

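The core kinases of the Hippo pathway, their scaffolds and several inhibitors that Yap itself can induce were followed across neonatal rat heart cultures in which Yap had been lowered by siRNA. The members were fixed by name as Lats1, Lats2, Stk3, Stk4, Sav1, Nf2, Amotl1, Amotl2, Ajuba and Limd1. Of these 10 symbols, 9 were found among the 14636 genes of the table and all 9 passed the filter on low values. Amotl1 was not analysed here.

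In the Hippo pathway the kinases MST1 (Stk4) and MST2 (Stk3), bound to the adaptor SAV1, activate the kinases LATS1 and LATS2. LATS kinases phosphorylate Yap and its paralog TAZ, which keeps both out of the nucleus, away from the TEAD factors through which they act on DNA. Merlin (Nf2) brings LATS kinases to the membrane, angiomotins such as Amotl2 bind Yap directly, and the LIM proteins Ajuba and Limd1 hold LATS kinases inactive. Lats2 and Amotl2 are also known targets of Yap, which closes a negative feedback loop. In mice, loss of Sav1 in the heart lets cardiomyocytes divide.

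The cells came from hearts of Sprague Dawley rats aged 2 days, which were split by a Percoll gradient into cardiomyocytes and cardiac fibroblasts and grown with 15% serum. Both cell types received either a universal negative control siRNA or a mix of 2 siRNAs against Yap at 25 nM each. Transfection followed 16 h of culture, and RNA was collected 48 h later. The concentration of the control siRNA was not given in these sources. The 4 groups were cardiomyocytes with control siRNA (CM_neg), cardiomyocytes with Yap siRNA (CM_yap), fibroblasts with control siRNA (CF_neg) and fibroblasts with Yap siRNA (CF_yap), with 3 libraries each. Nothing in the labels tells separate animals or cultures from repeat libraries of one, so p-values measure how far these libraries differ, possibly for technical reasons.

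Levels are given as FPKM, fragments scaled by transcript length and by the fragments mapped in the library, and differences on the log2(FPKM + 1) scale, which understates changes of low genes. A gene was called where limma's Benjamini-Hochberg adjusted p over the 11302 genes tested was under 0.05, and a log2 difference is given with its standard error (SE). FPKM totals were 563193.5 to 620119.3 per library, and Spearman correlations across genes were 0.989 to 0.992 between libraries of a group. Yap1 checked the labels. It stood at 55.26, 60.8 and 63.11 FPKM in CM_neg against 5.9, 4.43 and 6 FPKM in CM_yap, and at 35.42, 37.39 and 33.45 FPKM in CF_neg against 4.45, 3.88 and 4.49 FPKM in CF_yap. The 6 cardiomyocyte markers in the table (Tnnt2 and Myh6 among them) summed to between 19398.6 and 29190.1 FPKM in cardiomyocyte libraries and 650.2 to 873.8 FPKM in fibroblast libraries. The 7 fibroblast markers (Col1a1 and Tcf21 among them) summed to 332.4 to 487 FPKM and 16567.6 to 17549.5 FPKM. Other cells were present too: 7 endothelial markers summed to 278.6 to 329.3 FPKM in CM_neg and 230.5 to 269.3 FPKM in CM_yap, against 11.7 to 20.4 FPKM in fibroblast libraries, and 6 leukocyte markers summed to 99.4 to 172.2 FPKM over all libraries. No marker of the lists was at 0 in every library of a group.

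All 9 genes were expressed in both cell types, and Amotl2 had the highest level in each group. Under control siRNA its mean was 115.7 ± 1.44 FPKM in cardiomyocytes and 105.1 ± 6.23 FPKM in fibroblasts (SD, n = 3). In CM_neg the order then ran through Sav1 (39.7 FPKM), Lats2 (37.2 FPKM), Ajuba (34.4 FPKM), Nf2 (26.1 FPKM), Stk3 (19 FPKM), Stk4 (13 FPKM) and Limd1 (12.3 FPKM) to Lats1 (9.06 FPKM). Among neighbours in that order, the ranges of Sav1 and Lats2 overlapped, and each other pair stood apart. In CF_neg the order after Amotl2 was Sav1 (32.4 FPKM), Lats2 (29.2 FPKM), Ajuba (27.5 FPKM), Stk3 (16.5 FPKM), Nf2 (16.5 FPKM), Limd1 (14.2 FPKM), Lats1 (12.8 FPKM) and Stk4 (8.13 FPKM). There Lats2 overlapped with Ajuba and Stk3 overlapped with Nf2. The lowest place was thus held by Lats1 in cardiomyocytes and by Stk4 in fibroblasts. The median level of the 9 genes was 26.1 FPKM in CM_neg and 16.5 FPKM in CF_neg, against 13.4 and 11.5 FPKM over all genes tested.

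**Figure D1:**
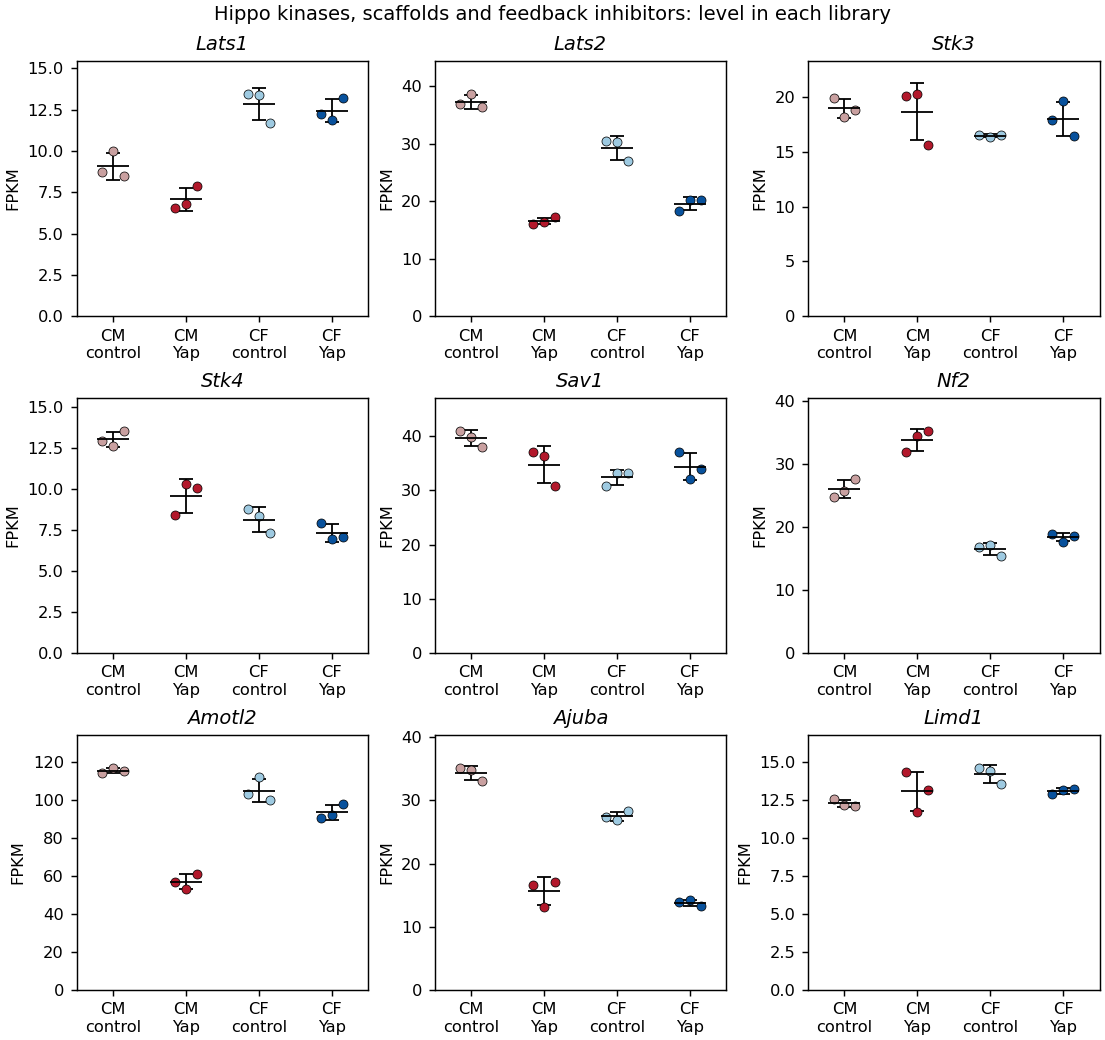
FPKM (y axis, from 0) of each gene in each of the 12 libraries; points are libraries, bars the mean and SD of 3, CM cardiomyocytes and CF fibroblasts. Lats2 and Ajuba were lower with Yap siRNA in both cell types (Lats2 37.2 to 16.5 FPKM and 29.2 to 19.5 FPKM), Amotl2 dropped from 115.7 to 57.0 FPKM in cardiomyocytes, and Stk3 overlapped between siRNAs in both.

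The first question was how these regulators stood once Yap was lowered in cardiomyocytes. Of the 9 genes, 5 fell (Lats1, Lats2, Stk4, Amotl2 and Ajuba), 1 rose (Nf2) and 3 were not called (Stk3, Sav1 and Limd1). Over all genes, 49.8% were called in this comparison, 28.7% lower and 21% higher. The median log2 change was −0.32 over the 9 genes and −0.06 over all genes. In 7 of the 9 the libraries of the groups did not overlap, as in 53.2% of all genes tested. In bulk RNA, fewer cells of a type and less RNA per cell cannot be told apart. The summed endothelial markers given above were lower in CM_yap, where 2 of the 7 fell and 1 rose. Of 6 smooth muscle and pericyte markers, 5 rose and 1 fell (summed 32.3 to 36.4 FPKM in CM_neg, 52.5 to 60.5 FPKM in CM_yap). Abcc9 had the largest part in the higher sum, with means of 7 FPKM in CM_neg and 24.17 FPKM in CM_yap. Leukocyte markers went both ways (3 of 6 rose, 2 fell). Epicardial markers fell in 2 of the 3 tested, and 2 of 7 fibroblast markers rose. Of 6 cardiomyocyte markers, 4 rose and 2 fell in CM_yap (summed 19398.6 to 21509.4 FPKM in CM_neg, 25815 to 29190.1 FPKM in CM_yap). The part of these markers in the results was not tested.

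Among the kinases, Lats2 changed most. It stood at 36.87, 38.56 and 36.29 FPKM in CM_neg and at 16.09, 16.35 and 17.22 FPKM in CM_yap. Every CM_yap library lay below every CM_neg library, and 44.5% of the control mean remained (41.7% to 47.5% over the pairs of libraries). The log2 change was −1.12 ± 0.07 SE (adjusted p = 1.93e-08), and 2.7% of all genes tested had a change at least as large in either direction. Lats1, which encodes the other kinase acting directly on Yap, stood at 8.71, 9.98 and 8.5 FPKM against 6.57, 6.77 and 7.89 FPKM. The groups did not overlap, and the fall was smaller (−0.32 ± 0.09 SE, adjusted p = 0.0112). That call ended without CM_neg 2 (adjusted p = 0.0594). Of all genes tested, 41.3% had a change at least as large in either direction. Stk4, the MST1 gene, stood at 12.94, 12.61 and 13.53 FPKM in CM_neg and 8.39, 10.28 and 10.05 FPKM in CM_yap. It fell without overlap of the groups (−0.41 ± 0.10 SE, adjusted p = 0.00238), a change matched or exceeded in size by 29.6% of all genes tested. Its paralog Stk3, the MST2 gene, stood at 19.89, 18.19 and 18.86 FPKM against 20.13, 20.25 and 15.63 FPKM. The CM_yap libraries lay on both sides of the control range. Its log2 change was −0.03 with a 95% interval of −0.23 to 0.17 (adjusted p = 0.809).

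Among the scaffolds, Nf2 was the member that rose. It stood at 24.78, 25.7 and 27.7 FPKM in CM_neg and at 31.91, 34.41 and 35.26 FPKM in CM_yap. All CM_yap libraries were above the control libraries, at 129.9% of the control mean (0.37 ± 0.07 SE, adjusted p = 0.000683). A change at least as large in either direction was seen in 34.9% of all genes tested. Sav1, the adaptor of the MST kinases, stood at 40.98, 39.94 and 38.03 FPKM against 37.07, 36.29 and 30.81 FPKM. The groups did not overlap, yet the change was not called (−0.19 ± 0.08 SE, 95% interval −0.36 to −0.02, adjusted p = 0.0567). Single libraries moved Sav1 both ways: it was called lower without CM_yap 1 (adjusted p = 0.0343) or CM_yap 2 (adjusted p = 0.045), and its change was −0.11 without CM_yap 3. Median-of-ratios scaling also gave −0.11 (adjusted p = 0.259).

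Amotl2, which encodes an angiomotin that tethers Yap, stood at 114.28, 117.15 and 115.67 FPKM in CM_neg and at 56.57, 53.31 and 61.21 FPKM in CM_yap. All 3 CM_yap libraries were far below the control range, and 49.3% of the control mean remained (−1.01 ± 0.07 SE, adjusted p = 2.13e-08). Ajuba, a LIM protein gene whose product inhibits LATS kinases, stood at 35.19, 34.86 and 33.04 FPKM against 16.65, 13.04 and 17.11 FPKM. It also fell without overlap, to 45.4% of control (−1.10 ± 0.09 SE, adjusted p = 1.68e-07). Limd1, a relative of Ajuba with the same kind of domain, stood at 12.57, 12.19 and 12.14 FPKM against 14.34, 11.73 and 13.15 FPKM. The groups overlapped, and its change was 0.08 with a 95% interval of −0.09 to 0.25 (adjusted p = 0.437). Lats2, Ajuba and Amotl2 thus had log2 changes below −1, while each of the other 6 lay between −0.41 and 0.37.

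Sequence upstream of the genes is shown for members that fell and for the member that rose. RefSeq windows on the GRCr8 build matched 7 of the 9 genes by symbol, and Lats2 and Stk3 were not matched. The 250 bases before the annotated start were searched on both strands for the TEAD core GGAATG, for the AP-1 motif TGANTCA and for the CArG box bound by SRF. Capitals mark a TEAD core, here as its reverse complement. The windows below are those of Amotl2 and Ajuba, the members with the largest falls among those matched, and of Nf2, which rose in cardiomyocytes. Lats1 and Stk4 fell as well, and their windows held no TEAD core.
Amotl2, chr8:112182376-112182625, plus strand: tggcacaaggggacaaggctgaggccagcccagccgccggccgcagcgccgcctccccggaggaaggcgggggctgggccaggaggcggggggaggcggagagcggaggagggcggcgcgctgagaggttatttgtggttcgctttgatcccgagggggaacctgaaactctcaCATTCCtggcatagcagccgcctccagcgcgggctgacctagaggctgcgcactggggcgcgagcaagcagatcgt
Ajuba, chr15:32000043-32000292, minus strand: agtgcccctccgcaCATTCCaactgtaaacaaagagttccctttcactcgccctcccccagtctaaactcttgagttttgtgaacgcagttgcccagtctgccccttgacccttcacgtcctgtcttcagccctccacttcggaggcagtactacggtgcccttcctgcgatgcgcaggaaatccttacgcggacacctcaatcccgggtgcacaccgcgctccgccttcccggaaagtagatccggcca
Nf2, chr14:83934152-83934401, minus strand: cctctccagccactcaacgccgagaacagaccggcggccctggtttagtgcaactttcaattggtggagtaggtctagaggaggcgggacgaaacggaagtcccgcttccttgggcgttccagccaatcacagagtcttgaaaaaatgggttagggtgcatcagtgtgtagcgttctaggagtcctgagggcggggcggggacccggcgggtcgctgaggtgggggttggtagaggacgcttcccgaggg

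The Amotl2 window held a TEAD core that began 76 bases before the start, and the Ajuba window held 1 that began 236 bases before it. Sav1, which was not called, also had 1, beginning 167 bases before the start. A core was thus found in 2 of the 4 matched genes that fell and in 1 of the 2 that were not called. The 1 matched gene that rose had 0. In all, 3 of 7 member windows held the TEAD core, against 12.1% of 33469 windows of the same length. The AP-1 motif was in 1 member window (Stk4), against 6.3% of all windows, and the CArG box in 0, against 1.5%. The member windows were GC-rich (57.2% to 80%, median of all windows 51.2%). A match in such letters is a description, and nothing here measured binding.

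In fibroblasts the same siRNA left most of these genes uncalled. Of the 9, 2 fell (Lats2 and Ajuba) and 0 rose by limma, where 30.9% of all genes tested were called, 10.5% lower and 20.4% higher. At an unadjusted p under 0.05 the count that rose was also 0, and Amotl2 joined the lower genes. The median change was −0.11 over the 9 genes and 0.07 over all genes, and in 5 of the 9 the groups did not overlap, as in 49.1% of all genes. Endothelial and epicardial markers were higher in CF_yap: 3 of 7 endothelial markers rose (summed 11.7 to 13.5 FPKM in CF_neg, 16 to 20.4 FPKM in CF_yap), as did 2 of 3 epicardial markers tested (88 to 95.2 FPKM and 131.7 to 143 FPKM, summed over the 4 in the table). Of the 7 fibroblast markers 3 rose and 0 fell, with similar sums (16567.6 to 17549.5 FPKM and 17325.1 to 17536.2 FPKM). Of the 6 smooth muscle and pericyte markers 3 rose and 1 fell, while their sum was lower in CF_yap (238 to 257.5 FPKM in CF_neg, 190.2 to 199.6 FPKM in CF_yap). Of the 6 cardiomyocyte markers 2 rose and 2 fell, and their sum was lower too (825.6 to 873.8 FPKM and 650.2 to 747.6 FPKM). The part of these markers in the results was not tested.

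Ajuba changed most among the members in fibroblasts. It stood at 27.36, 26.9 and 28.27 FPKM in CF_neg and at 13.97, 14.17 and 13.24 FPKM in CF_yap. The groups were far apart, with 50.1% of control remaining (−0.95 ± 0.09 SE, adjusted p = 1.25e-06), and 42 genes of all those tested had a log2 change as low or lower, Ajuba included. Lats2 stood at 30.51, 30.29 and 26.92 FPKM against 18.24, 20.24 and 20.18 FPKM. It fell to 66.9% of control without overlap (−0.56 ± 0.07 SE, adjusted p = 3.48e-05). Amotl2 stood at 103.27, 112.05 and 100.01 FPKM against 90.79, 92.06 and 97.82 FPKM. All CF_yap libraries lay just below the control range, at 89% of the control mean, and the change was not called (−0.17 ± 0.06 SE, 95% interval −0.30 to −0.03, adjusted p = 0.0659). Median-of-ratios scaling called it lower (adjusted p = 0.0153), as did quantile normalization (adjusted p = 0.0431) and a fit of the fibroblast groups alone (adjusted p = 0.0426).

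The other kinases and scaffolds had small changes in fibroblasts. Lats1 stood at 13.43, 13.37 and 11.71 FPKM in CF_neg and 12.22, 11.86 and 13.2 FPKM in CF_yap, with overlapping groups (−0.04, 95% interval −0.24 to 0.16). Stk4 stood at 8.77, 8.32 and 7.31 FPKM against 7.91, 6.97 and 7.05 FPKM, again with overlap (−0.13, −0.34 to 0.07). Both intervals include no change and exclude a halving. Stk3 (16.58, 16.35 and 16.51 FPKM against 17.89, 19.64 and 16.47 FPKM) changed by 0.12 (95% interval −0.09 to 0.32). Sav1 (30.8, 33.16 and 33.31 FPKM against 37.12, 32.16 and 34.01 FPKM) had 0.08 (−0.09 to 0.25). Both pairs of groups overlapped. Nf2 stood at 16.82, 17.18 and 15.36 FPKM against 18.96, 17.65 and 18.53 FPKM, and Limd1 at 14.63, 14.44 and 13.53 FPKM against 12.9, 13.14 and 13.24 FPKM. For Nf2 all CF_yap libraries were above the controls and for Limd1 all were below, and neither was called (Nf2 0.15 ± 0.07 SE, adjusted p = 0.124; Limd1 −0.11 ± 0.08 SE, adjusted p = 0.329). Quantile normalization brought Stk4 (−0.26, adjusted p = 0.0488) and Limd1 (−0.21, adjusted p = 0.0433) just past the threshold.

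**Figure D2:**
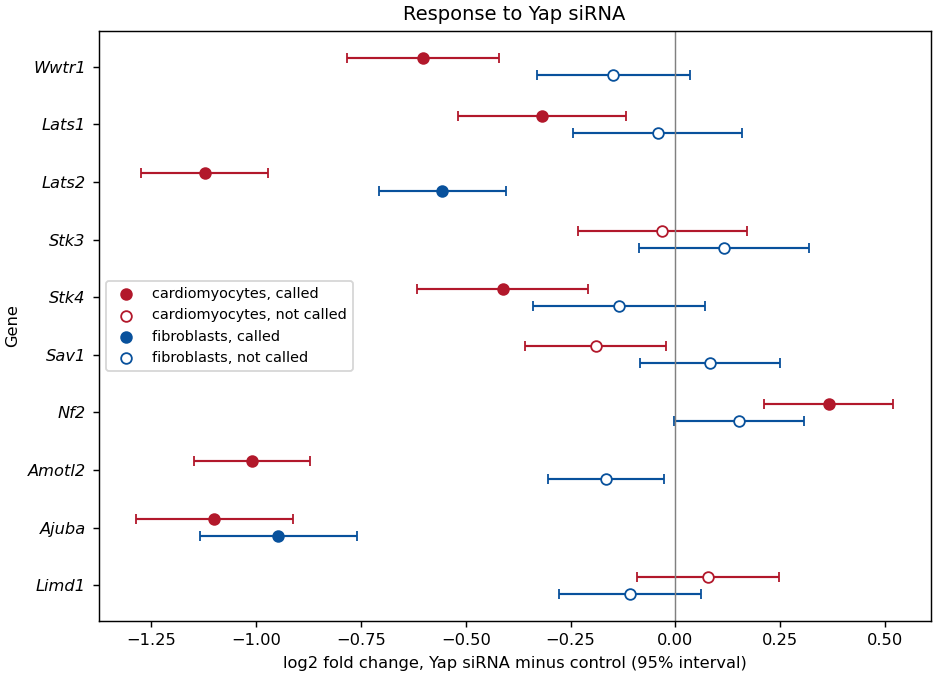
Log2 fold change of Yap siRNA against control (x axis) for the 9 genes and Wwtr1, with 95% intervals from limma; filled points were called at an adjusted p under 0.05, open points were not. Lats2 (−1.12 and −0.56) and Ajuba (−1.10 and −0.95) were called in both cell types, and Amotl2 (−1.01 and −0.17) in cardiomyocytes.

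Whether the response differed between the cell types was tested directly, as the cardiomyocyte effect minus the fibroblast effect. Of the 9 genes, 2 passed (Amotl2 and Lats2, both with the larger fall in cardiomyocytes), against 35.3% of all genes tested, 23.6% lower and 11.7% higher. For Amotl2 the difference was −0.84 ± 0.09 SE (adjusted p = 9.24e-06), and for Lats2 it was −0.57 ± 0.10 SE (adjusted p = 0.000651). Each kept its call under all 20 alternatives run. The fall of Ajuba differed by −0.15 between the cell types, with a 95% interval of −0.42 to 0.11 (adjusted p = 0.355). Lats1 (−0.28, adjusted p = 0.12), Stk4 (−0.28, adjusted p = 0.125), Stk3 (−0.15, adjusted p = 0.414), Nf2 (0.21, adjusted p = 0.116) and Limd1 (0.19, adjusted p = 0.213) were not called. Sav1 (−0.27, adjusted p = 0.0691) was called without CM_yap 1 (adjusted p = 0.0445) or CF_yap 2 (adjusted p = 0.0498). The median difference over all genes was −0.13 and moved by 0.12 under median-of-ratios scaling and by 0.14 under quantile normalization. Under these scalings Amotl2 stood 0.70 and 0.79 below the all-gene median and Lats2 0.42 and 0.46 below it. Nf2 and Limd1 were then called as well, with the higher value in cardiomyocytes (Nf2 adjusted p = 0.022 and 0.0238, Limd1 adjusted p = 0.0364 and 0.0154).

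Of Yap1 itself, 9.1% of the control level remained in cardiomyocytes (7% to 10.9% over the pairs of libraries) and 12.1% in fibroblasts (10.4% to 13.4%). The difference of these effects (−0.46, adjusted p = 0.0215) lost its call with a pseudocount of 0.1 (adjusted p = 0.0555), under median-of-ratios scaling (adjusted p = 0.083) and quantile normalization (adjusted p = 0.123), and when CF_neg 3 (0.0553) or CF_yap 3 (0.0503) was left out. Wwtr1, the TAZ gene, was at 65.1% of control in cardiomyocytes (40.3 ± 1.40 to 26.2 ± 1.93 FPKM, SD, n = 3; −0.60 ± 0.09 SE, adjusted p = 4.13e-05) and at 90% in fibroblasts (adjusted p = 0.208).

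Between the cell types under control siRNA, 5 of the 9 genes were higher in cardiomyocytes (Lats2, Stk4, Sav1, Nf2 and Ajuba), 2 were lower (Lats1 and Limd1) and 2 were not called (Stk3 and Amotl2). Over all genes 68.4% were called, 42% higher and 26.4% lower, and the groups of all 9 members were free of overlap, as in 73.3% of all genes. Nf2 stood at 1.58 times the fibroblast level (0.63 ± 0.07 SE, adjusted p = 1.23e-06) and Stk4 at 1.60 times it (0.62 ± 0.10 SE, adjusted p = 3.2e-05). Lats1 was at 0.71 of the fibroblast level (−0.46 ± 0.09 SE, adjusted p = 0.000468) and Lats2 at 1.27 times it (0.34 ± 0.07 SE, adjusted p = 0.000569), so the LATS genes differed in opposite directions.

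The smaller differences between the cell types depended on scaling or on single libraries. The all-gene median of 0.13 fell by 0.12 under median-of-ratios scaling and by 0.19 under quantile normalization. Sav1 (0.28, adjusted p = 0.00492) and Ajuba (0.31, adjusted p = 0.00527) then lost their calls (adjusted p = 0.102 and 0.199 for Sav1, 0.0628 and 0.131 for Ajuba). Lats2 kept its call but with smaller values (0.21, adjusted p = 0.0153, and 0.171, adjusted p = 0.0453). Limd1 (−0.19, adjusted p = 0.0429) lost its call without CM_neg 1 (adjusted p = 0.0619), CM_neg 2 (adjusted p = 0.0908), CM_neg 3 (adjusted p = 0.089), CF_neg 1 (adjusted p = 0.12) or CF_neg 2 (adjusted p = 0.107). It was lower under both scalings (adjusted p = 0.00155 and 0.000187). Amotl2 (0.14, adjusted p = 0.0698) was called without CF_neg 2 (adjusted p = 0.035), and its sign turned under quantile normalization (−0.05). Stk3 (0.19, adjusted p = 0.0852) was called with only these groups in the fit (adjusted p = 0.0249).

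With Yap siRNA in both cell types, 2 genes were higher in cardiomyocytes (Nf2 and Stk4), 3 were lower (Lats1, Lats2 and Amotl2) and 4 were not called, where 72.9% of all genes were called, 36.7% higher and 36.2% lower. Lats2, higher in cardiomyocytes under control siRNA, was now lower there, at 0.85 of the fibroblast level (−0.23 ± 0.07 SE, adjusted p = 0.00992). Amotl2 went from 1.10 to 0.61 times the fibroblast level (−0.71 ± 0.07 SE after Yap siRNA, adjusted p = 8.43e-08). Lats1 stood at 0.57 of the fibroblast level (−0.74 ± 0.09 SE) and Nf2 at 1.84 times it (0.85 ± 0.07 SE). Ajuba (0.16, adjusted p = 0.117) was called higher in cardiomyocytes without CM_yap 2 (adjusted p = 0.0021), and was 0.09 without CM_yap 3 (adjusted p = 0.385). These comparisons share the knockdown libraries with those above.

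**Figure D3:**
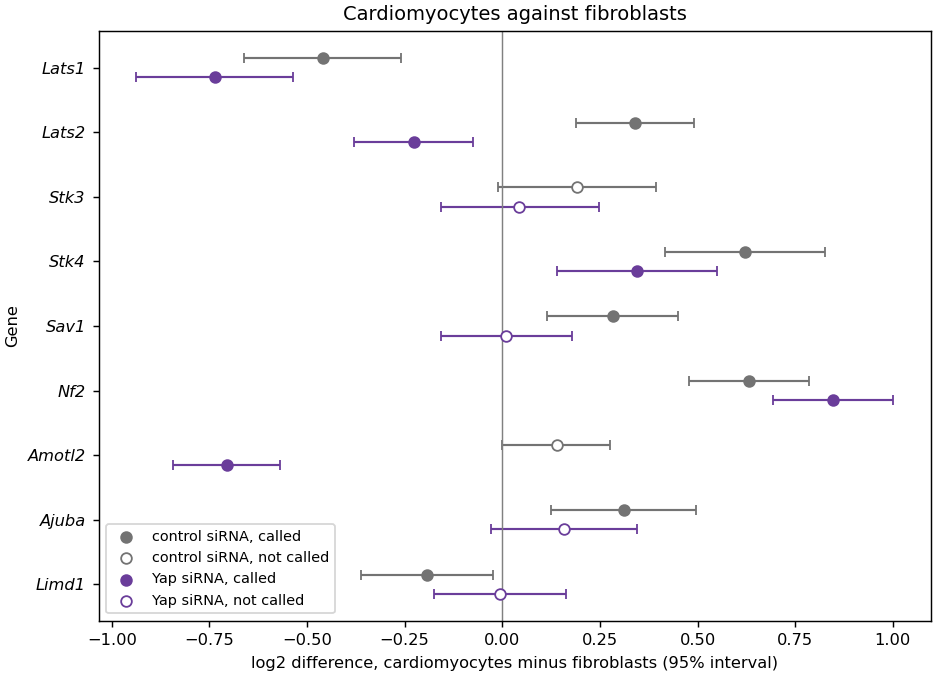
Log2 difference of cardiomyocytes against fibroblasts (x axis) for the 9 genes under each siRNA, with 95% intervals from limma; filled points were called, open points were not. Lats2 lay above 0 with control siRNA (0.34) and below 0 with Yap siRNA (−0.23), and Amotl2 moved from 0.14 to −0.71.

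FPKM is scaled by transcript length, so related genes were set side by side within a library. Differences in level between genes rest on FPKM alone, and the tool that computed it was not given. The ratio of Lats2 to Lats1 was 4.23, 3.86 and 4.27 in CM_neg and 2.45, 2.42 and 2.18 in CM_yap. In fibroblasts it was 2.27, 2.27 and 2.3 in CF_neg and 1.49, 1.71 and 1.53 in CF_yap. Lats2 had the higher FPKM of the pair in all 12 libraries, and in each cell type its excess was smaller in every Yap siRNA library. The summed level of both LATS genes was 46.3 ± 2.0 FPKM in CM_neg and 23.6 ± 1.3 FPKM in CM_yap, and 42.1 ± 3.0 and 32.0 ± 1.5 FPKM in fibroblasts (SD, n = 3). The log2 ratio differed by −0.81 in cardiomyocytes and −0.51 in fibroblasts (exact permutation test, two-sided, p = 0.1 each, the smallest p that 3 libraries against 3 allow).

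Stk3 had the higher FPKM of the MST genes in all libraries. Its ratio to Stk4 was 1.54, 1.44 and 1.39 in CM_neg and 2.4, 1.97 and 1.56 in CM_yap. The ratio was 1.89, 1.97 and 2.26 in CF_neg and 2.26, 2.82 and 2.34 in CF_yap. The cardiomyocyte groups did not overlap, and the fibroblast groups nearly met at 2.26 (exact permutation test, two-sided, p = 0.1 each). The summed MST level was 32.0 ± 1.1 FPKM in CM_neg, 28.2 ± 2.4 in CM_yap, 24.6 ± 0.8 in CF_neg and 25.3 ± 1.6 in CF_yap, and the fibroblast groups overlapped (exact permutation p = 0.5).

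The ratio of Ajuba to Limd1 was 2.8, 2.86 and 2.72 in CM_neg and 1.16, 1.11 and 1.3 in CM_yap. It was 1.87, 1.86 and 2.09 in CF_neg and 1.08, 1.08 and 1 in CF_yap. Under Yap siRNA the genes were thus close to equal in level in both cell types, where Ajuba had been 73.6% of the pair's sum in CM_neg and 66% in CF_neg. The sum of both went from 46.7 ± 1.3 to 28.7 ± 3.4 FPKM in cardiomyocytes and from 41.7 ± 0.3 to 26.9 ± 0.4 FPKM in fibroblasts (log2 −0.69 and −0.62, exact permutation p = 0.1 each). Summed over all 9 genes, the level was 306.4 ± 2.7 FPKM in CM_neg, 206.2 ± 3.2 in CM_yap, 262.4 ± 9.6 in CF_neg and 230.5 ± 3.0 in CF_yap (SD, n = 3). Amotl2 had the largest part in this sum, with means of 115.7, 57.03, 105.11 and 93.56 FPKM in the same order. The sum also joins activators of the LATS kinases with their inhibitors Ajuba and Limd1, so it does not describe each gene.

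**Figure D4:**
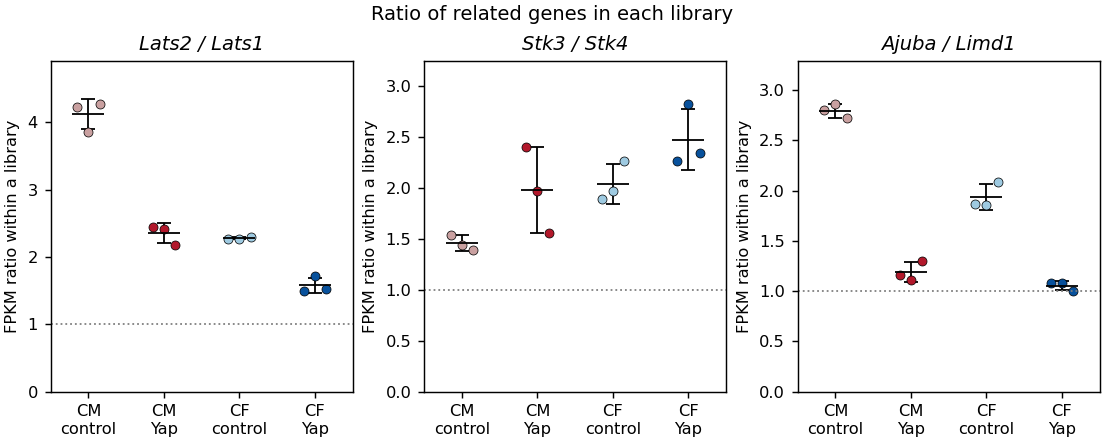
FPKM ratio within each library (y axis, from 0) for Lats2 to Lats1, Stk3 to Stk4 and Ajuba to Limd1; points are libraries, bars the mean and SD of 3, and the dotted line marks a ratio of 1. The Ajuba to Limd1 ratio went from a mean of 2.79 to 1.19 in cardiomyocytes and from 1.94 to 1.05 in fibroblasts.

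Other genes of the pathway gave the setting of these changes. Of 65 symbols listed in 5 groups (Pals1 and Mpp5 name the same gene), 55 were tested. In cardiomyocytes 9 rose and 27 fell, Yap1 included (median −0.19, all genes −0.06), and in fibroblasts 10 rose and 7 fell (median 0.02, all genes 0.07). Over all genes tested, 21% were called higher and 28.7% lower in cardiomyocytes, and 20.4% higher and 10.5% lower in fibroblasts. As shares of the 55, these counts were 16.4% and 49.1% in cardiomyocytes and 18.2% and 12.7% in fibroblasts, the latter near the shares of all genes. Without Yap1, the siRNA target, the shares of 54 genes were 16.7% and 48.1% in cardiomyocytes and 18.5% and 11.1% in fibroblasts. Of the 6 effector genes, 1 fell in fibroblasts, Yap1 itself, and 0 rose (16.7% and 0%). In cardiomyocytes 4 fell, Yap1 included, and 1 rose (66.7% and 16.7%). Tead1, which encodes a TEAD factor, fell from 41.0 ± 8.58 to 21.4 ± 4.70 FPKM (SD, n = 3; −0.90 ± 0.15 SE, adjusted p = 0.000208). Among the partners of the LATS kinases in cardiomyocytes, the coactivator gene Mob1a fell from 28.9 ± 2.45 to 17.0 ± 1.60 FPKM (SD, n = 3; −0.73 ± 0.08 SE, adjusted p = 5.88e-06). Mob1b fell from 16.1 ± 0.88 to 9 ± 1.41 FPKM (−0.78 ± 0.16 SE, adjusted p = 0.00101). Stk38l, which encodes a kinase related to the LATS kinases, fell from 42.7 ± 4.09 to 22.8 ± 0.96 FPKM (−0.87 ± 0.10 SE, adjusted p = 5e-06). In all, 5 of the 14 kinase adaptors and parallel kinases rose and 5 fell in cardiomyocytes, and 5 rose and 1 fell in fibroblasts. These are 35.7% and 35.7% of the group in cardiomyocytes, and 35.7% and 7.1% in fibroblasts, to be read against the shares of all genes given above. Counts per pathway group, here and below, are for FPKM as deposited and were not repeated under the other scalings. Mink1 (0.42, adjusted p = 0.000947) and Map4k4 (0.25, adjusted p = 0.0079), which encode kinases that act beside the MST kinases, rose in fibroblasts. Both also rose in cardiomyocytes (Mink1 0.245, adjusted p = 0.0176, Map4k4 0.228, adjusted p = 0.00806). Leaving out either CM_neg 2 or CM_yap 3 ended the Mink1 call there (adjusted p = 0.0698 and 0.0684). Neither gene was called for a difference between the cell types (adjusted p = 0.24 for Mink1 and 0.872 for Map4k4).

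Of 15 upstream scaffolds and polarity genes, 8 fell and 1 rose in cardiomyocytes (median −0.35), which is 53.3% and 6.7% where 28.7% and 21% of all genes were called. Wwc2, a relative of the LATS activator KIBRA, fell from 21.7 ± 0.51 to 12.1 ± 0.73 FPKM (SD, n = 3; −0.79 ± 0.08 SE), and the FERM domain gene Frmd6 fell by 0.55 on the log2 scale. In fibroblasts 4 of these rose and 1 fell, or 26.7% and 6.7% against 20.4% and 10.5% of all genes. The protocadherin gene Fat4 rose from 2.33 ± 0.19 to 4.63 ± 0.35 FPKM (0.76 ± 0.11 SE, adjusted p = 0.000103), and Rassf1, whose product binds MST kinases, fell by 0.38. Rassf5, its relative, had 0.50 (adjusted p = 0.00748), a call that quantile normalization ended (adjusted p = 0.0563). Rassf1 fell in cardiomyocytes too (−0.49, adjusted p = 0.000227).

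The STRIPAK complex holds the phosphatase PP2A, which opposes the MST kinases. Of 12 STRIPAK and phosphatase genes tested, 5 fell and 1 rose in cardiomyocytes (41.7% and 8.3%, against 28.7% and 21% of all genes). In fibroblasts 3 fell and 0 rose by limma (25% and 0%, against 10.5% and 20.4%), and 0 were higher at an unadjusted p under 0.05 as well. Strn3 (−0.48), the PP2A catalytic gene Ppp2ca (157.4 ± 3.38 to 119.4 ± 5.97 FPKM, SD, n = 3; −0.40) and the PP2A scaffold gene Ppp2r1a (−0.52) fell in cardiomyocytes, and Ppp2cb (−0.30) and Ppp2r1a (−0.29) in fibroblasts. Ppp2cb fell in cardiomyocytes too (−0.41, adjusted p = 0.000533). Of 8 genes listed under YAP turnover, the 14-3-3 genes among them, 5 fell and 1 rose in cardiomyocytes (62.5% and 12.5%, against 28.7% and 21% of all genes). The 14-3-3 genes Ywhaq (−0.25) and Ywhaz (−0.29) fell and Ywhae (0.34) rose. In fibroblasts 1 rose, the F-box gene Btrc (0.36, adjusted p = 0.00106), and 1 fell, Ywhab (−0.17, adjusted p = 0.0406), each 12.5% of the group against 20.4% and 10.5% of all genes. Ywhab fell in cardiomyocytes too (−0.22, adjusted p = 0.0053), a call that median-of-ratios scaling ended (adjusted p = 0.0632).

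The weakest of these fibroblast calls did not hold under all alternatives. Taok2 (0.26, adjusted p = 0.02) was lost under both scalings (adjusted p = 0.0537 and 0.119) and without CF_neg 2 (adjusted p = 0.0519), CF_neg 3 (adjusted p = 0.0771), CF_yap 1 (adjusted p = 0.056) or CF_yap 3 (adjusted p = 0.106). Ppp2ca (−0.16, adjusted p = 0.0409) and Ywhab had adjusted p values of up to 0.155 and 0.148, both without CF_yap 1. They were lost too without CF_neg 1 (0.0656 and 0.0665), CF_neg 2 (0.0993 and 0.0764), CF_neg 3 (0.117 and 0.137) or CF_yap 3 (0.0955 and 0.111), and without a variance trend (0.0806 and 0.0801). Ppp2ca was lost as well without CM_neg 1 (adjusted p = 0.0507) or CM_neg 2 (adjusted p = 0.0506). Mob1b, the kinase adaptor that fell in fibroblasts (−0.47, adjusted p = 0.0373), was lost with no filter (adjusted p = 0.0949), with the fibroblast groups fitted alone (adjusted p = 0.0784), and without CF_neg 1 (0.103), CF_neg 2 (0.147), CF_yap 1 (0.0701) or CF_yap 2 (0.179).

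**Figure D5:**
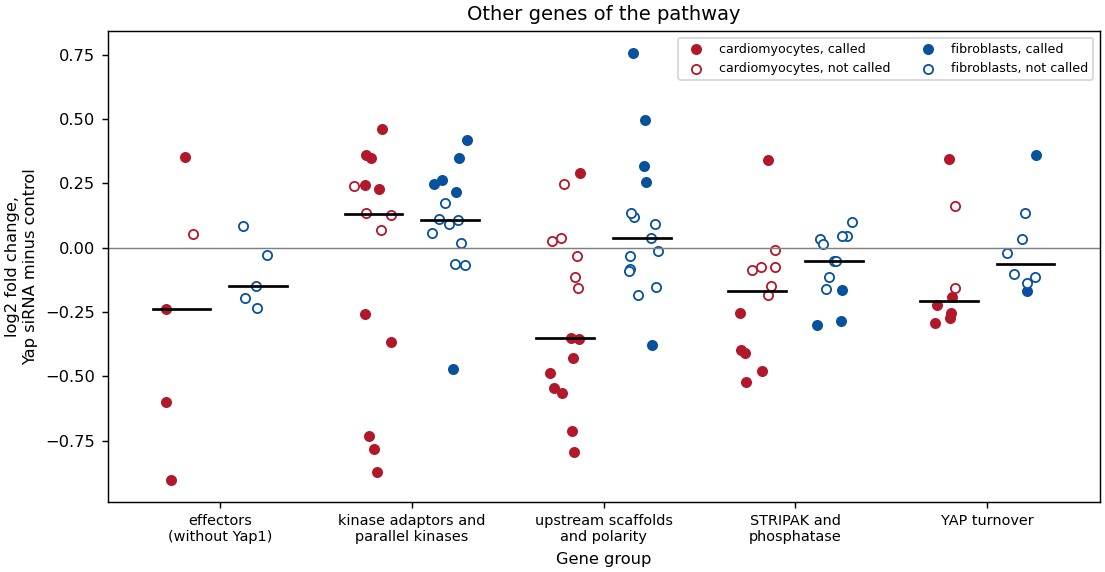
Log2 fold change of Yap siRNA against control (y axis) for 54 other genes of the pathway in 5 groups (x axis), Yap1 left out of the plot; filled points were called, open points were not, and bars are medians. Upstream scaffold genes lie mostly below 0 in cardiomyocytes, with Wwc2 at −0.79, and Fat4 lies at 0.76 in fibroblasts.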

How the data were processed

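Poly-A RNA libraries were made by a low-input BGISEQ-500 protocol, per the labels' protocols. The values are FPKM per the file headers, deposited by the authors with 1 column per library. HISAT, Bowtie2 and rn6 are named in the submitters' processing notes. Their versions, the tool that computed FPKM and the numbers of reads were not given in these sources, so depth is unknown and counting error could not be estimated. Low values gave no clear whole-read steps: 25.3% of 4595 values lay within 0.1 of a whole multiple of a gene's lowest value, against 20% without steps.

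Values were tested as log2(FPKM + 1) where a gene averaged 0.5 FPKM or more across the 12 libraries. All 4 groups were fitted together in limma 3.58.1 (lmFit, eBayes with a variance trend, R 4.3.3), two-sided. The Benjamini-Hochberg adjustment ran over all 11302 genes within each of the 5 comparisons, and not across comparisons. Single values per library were compared by exact permutation tests. Tables were handled with pandas 2.3.3 and plots drawn with matplotlib 3.10.9, under Python 3.11.15. No pair of libraries was identical. Symbols turned into dates or left blank in 31 lines were restored by gene ID in 29. Named were all members, Yap1, Wwtr1 and, per pathway group, up to 3 called genes with the smallest p in each Yap comparison. Also named was, for each member, the gene with the highest Pearson r of log2 levels. Of the genes this rule names, 1 is not reported here. The members and lists were chosen with earlier results of these data known. Alternatives were pseudocounts of 0.1 and 5, no filter or 5 FPKM, a fit with no variance trend, quantile normalization, median-of-ratios scaling, a replicate block, smaller fits, and leaving out each library.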

Additional observations from a re-analysis of the deposited data

Results flagged for a closer look

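The response to Yap siRNA was tested for a difference between the cell types, given here as the log2 effect in cardiomyocytes minus that in fibroblasts, with limma's adjusted p. Among the members it was called for Amotl2 (−0.84, adjusted p = 9.24e-06) and Lats2 (−0.57, adjusted p = 0.000651), and for the paralog gene Wwtr1 (−0.45, adjusted p = 0.00948). These held under each alternative run, with adjusted p values of up to 0.00011, 0.00361 and 0.0444. The difference for Yap1 (−0.46, adjusted p = 0.0215) ended with a pseudocount of 0.1 (adjusted p = 0.0555), under both scalings (adjusted p = 0.083 and 0.123) and when CF_neg 3 (0.0553) or CF_yap 3 (0.0503) was left out.

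Among the other pathway genes named, the effect was lower in cardiomyocytes, under each alternative run, for Wwc2 (−0.92), Fat4 (−0.92), Stk38l (−0.89), Rassf5 (−0.85) and Mob1a (−0.67), and higher for Ywhae (0.45). It was also lower for Tead1 (−0.67), Frmd6 (−0.39), Strn3 (−0.32), Ppp2ca (−0.23) and Ywhaq (−0.23). Each of these last 5 lost its call under median-of-ratios scaling (adjusted p = 0.0791, 0.0765, 0.14, 0.36 and 0.309). Quantile normalization also ended the calls of Tead1, Frmd6 and Strn3 (adjusted p = 0.0621, 0.104 and 0.0729). Single libraries ended some of them. For Tead1 these were CM_neg 2 and 3, CM_yap 1, CF_neg 3 and CF_yap 3 (adjusted p = 0.0601 to 0.071), and for Frmd6 CF_yap 3 (adjusted p = 0.0507). For Ppp2ca they were CM_neg 1 and 3, CM_yap 2, CF_neg 1 and 2 and CF_yap 2 and 3 (adjusted p = 0.0518 to 0.0845). For Ywhaq they were CM_neg 1 and 2, CF_neg 2 and 3 and CF_yap 1 and 3 (adjusted p = 0.0517 to 0.074). A fit with no variance trend ended the calls of Ppp2ca (adjusted p = 0.0725) and Ywhaq (adjusted p = 0.0599), and testing with no filter ended that of Tead1 (adjusted p = 0.0813). With 3 libraries a group, no check for single outlying libraries was made beyond leaving out each library in turn.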

How the results depend on the processing

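Of 720 values of single members under the alternatives, 678 kept their direction and side of the threshold, 16 gained a call, 11 lost it and 15 changed sign. In cardiomyocytes 6 members were called under each alternative other than leaving out a library (5 to 7 without each library). The median change there (−0.32) was −0.22 with a pseudocount of 5 and −0.215 under quantile normalization. In fibroblasts 2 members became 5 under quantile normalization, all lower (median −0.19). For the difference between cell types, 2 became 4 under either scaling, 2 of them higher, with medians of −0.143 (median-of-ratios) and −0.062 (quantile). Under control siRNA the median of cardiomyocytes against fibroblasts (0.28) was 0.152 and 0.116 under these scalings, and with Yap siRNA (0.01) it ran from −0.038 to 0.09 without each library. Sign changes concerned uncalled values near 0. Stk3 in cardiomyocytes was 0.045 under median-of-ratios scaling, 0.012 under quantile normalization and −0.091 to 0.086 without each library. Under quantile normalization Amotl2 with control siRNA was −0.046, and with Yap siRNA Stk3 was −0.007 and Sav1 −0.083. Without each library, the differences with Yap siRNA were −0.016 to 0.161 for Stk3, −0.038 to 0.091 for Sav1 and −0.07 to 0.064 for Limd1. Scaling moved the percentage of higher genes among those called: from 42.3% to 53% (median-of-ratios) and 47.8% (quantile) in cardiomyocytes, from 66.1% to 54.8% and 46.4% in fibroblasts, from 33.1% to 51.8% and 51.2% for the difference, and from 61.4% to 50.8% and 45% between cell types with control siRNA. The cause was not tested.

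Deviations of libraries with the same replicate number correlated at −0.123 to 0.144, so the numbers were not taken as pairs. In cardiomyocytes each control library correlated best with its own number, and in fibroblasts 0 of 3 did, as a hint from the data and not the design. With a replicate block, 6 members were called between cell types under control siRNA in place of 7, since Limd1 lost its call (adjusted p = 0.053), and the counts of the other comparisons were 6, 2, 2 and 5 as before. Among the other pathway genes named, the block ended the fibroblast calls of Mob1b, Ppp2ca and Ywhab (adjusted p = 0.052, 0.0618 and 0.0614) and the difference between cell types of Ppp2ca (adjusted p = 0.0554). The ratios and sums of related genes kept their direction with a pseudocount of 0.1 and without each library. The ratio and sum of Amotl2 with Amotl1 were not run.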

Other observations

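For each member, the gene whose log2 levels had the highest Pearson r with it over the 12 libraries was looked up, as a description. This compares the pattern over libraries and not the level itself. The libraries fall into 4 groups, and r was computed across them with no p. Genes without a proper symbol (such as those starting with LOC or RGD) were left out of the search and of the counts. Ajuba was closest to Yap1 itself (r = 0.989), and 34 genes had an r over 0.95 with it. Lats2 was closest to Pea15 (r = 0.991), which stood at 159.6 FPKM in CM_neg, 69.1 in CM_yap, 119 in CF_neg and 81.7 in CF_yap. Amotl2 was closest to Tril (r = 0.99; 12.4, 1.32, 9.06 and 7.03 FPKM in the same order). Lats1 was closest to Kirrel (r = 0.986) and Stk4 to Usp5 (r = 0.986). Nf2 was closest to Foxn3 (r = 0.998), with 714 genes over 0.95. For Stk3 (Tnfrsf14, r = 0.882), Sav1 (Rabggtb, r = 0.924) and Limd1 (Cfl1, r = 0.88), no gene searched reached 0.95.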
